A study of Mus musculus with 12 samples.

Results

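The ODN main effect asks how transcript levels in mouse splenic B cells differed between mice that received a CpG oligodeoxynucleotide (ODN) and mice that did not, whether or not the drug IM156 was also given. All 12 libraries of the series entered it: 6 with ODN (3 ODN, 3 ODN+IM156) against 6 without (3 control, 3 IM156), joined in an additive model that carries IM156, given or not, as a covariate. The 12 libraries were chosen by treatment label alone. Every gene that passed a low-count filter was tested, 11857 of the 23282 rows in the deposited count table. The mice were wild-type C57BL/6 animals aged 7 weeks per the sample labels, although the series text speaks of lupus-prone mice. ODN mice received 50 µg of the class B CpG-ODN 1826 into the peritoneum on days 1 and 3, IM156 mice received intraperitoneal doses of 30 mg/kg on day 0 and again on day 2, ODN+IM156 mice received both agents on their respective days, and control mice are labelled as untreated. Spleens were taken on day 4 and RNA was read with QuantSeq, which sequences the 3′ ends of polyadenylated transcripts. The labels give neither sex, vehicle, number of animals per library nor batch, so that p-values measure the spread between these samples, which may be technical.

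Unmethylated CpG DNA is sensed in endosomes by the receptor TLR9, which signals through MyD88 to NF-kB and to interferon regulatory factors. In B cells a class B ODN is known for driving entry into the cell cycle, surface activation and cytokine output, and in the whole animal it also acts on dendritic cells and other leukocytes whose cytokines reach B cells. Interferon-gamma, made largely by NK and T cells, induces immunity-related GTPases and the machinery that loads peptides on MHC class I. The series title calls IM156 an oxidative phosphorylation inhibitor, that is, of the mitochondrial respiratory process that makes most ATP.

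Libraries held 9650775 to 11532525 counts. A gene is called below if its adjusted p (edgeR quasi-likelihood test, Benjamini-Hochberg over all genes tested) was under 0.05. Levels are counts scaled to the TMM-adjusted library size (CPM), and changes are log2 fold changes. Their standard error (SE) was back-calculated as the absolute log2 change divided by the square root of the F statistic of the test. The leading principal component, 31.4% of the variance, placed all 6 libraries with ODN on one side (7.69 to 52.6) and all 6 without on the other (-24.5 to -14.5), with ODN replicate 1 the farthest. ODN replicate 3 held 1 count of the X-inactivation RNA Xist against 923.9 to 1320 CPM in the other 11 libraries, and genes of the Y chromosome were at 0 to 1 count in every library; that library therefore stands apart from its labelled group. ODN replicate 2 held 1.46% of its counts in the ribosomal RNA row Rn45s against 4.78 to 9.63% elsewhere. B-cell identity markers summed to 30970 to 35480 CPM with ODN and 31210 to 34870 CPM without, and all 27 of them were tested.

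Pooled over IM156, ODN changed 1255 of 11857 genes (10.6%), of which 865 were higher (7.3%) and 390 lower (3.29%). Genes that rose included most of those listed for mitosis, DNA replication, interferon-gamma GTPases, MHC class I presentation and platelets, and genes that fell included 13 of 28 immediate-early genes, 5 globin rows, Apol7c and Ahnak. Of the called genes 369 differed at least 2-fold and 588 by less than 0.5 on the log2 scale. The division between rises and falls depends on scaling: with library totals in place of TMM factors 716 genes were called higher and 736 lower, and the median log2 change of all genes moved from -0.01 to -0.06. In 603 genes (5.09% of those tested) the 6 libraries with ODN lay wholly above or below the 6 without, and 537 of these were called. In 850 genes (7.17%) the 3 with ODN were separated from the 3 without in the same direction both with and without IM156, and 707 of those were called. Fewer cells of a type and less RNA per cell cannot be told apart in such bulk samples.

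**Figure D1:**
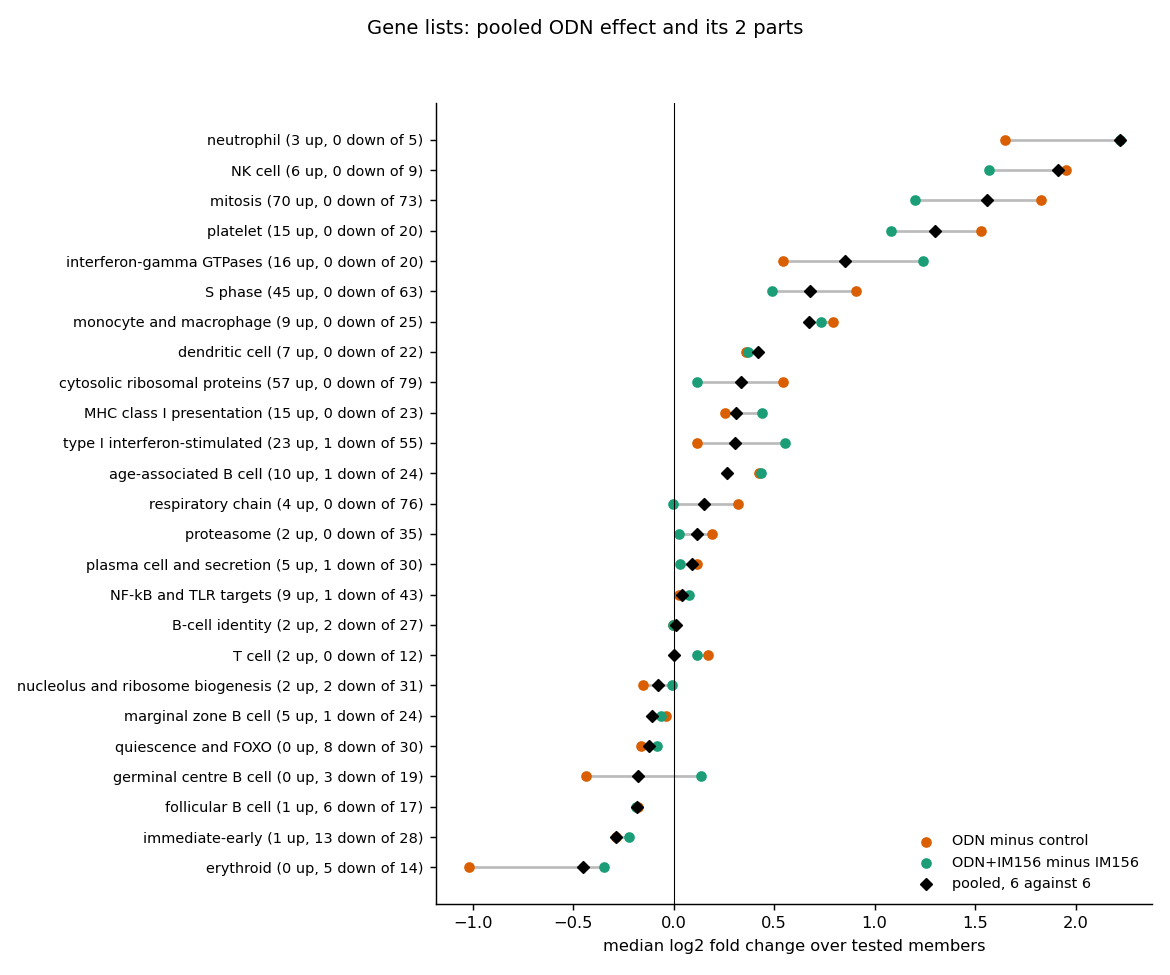
Median log2 fold change over the tested members of each of 25 gene lists (x axis), for ODN minus control, ODN+IM156 minus IM156 and the pooled effect; the labels count members called in the pooled effect. Mitosis genes sat at 1.56 pooled, between 1.83 without IM156 and 1.2 with it, whereas interferon-gamma GTPases sat at 0.854 between 0.542 and 1.24.

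Interferon-induced genes rose. Of 20 tested GTPases induced by interferon-gamma 16 rose (80%, against 7.3% of all genes) and none fell. They belong to the IRG and GBP families, which attack the vacuoles of intracellular pathogens. Their median log2 change was 0.85 against -0.01 over all genes tested. Iigp1, an immunity-related GTPase at chromosome 18:60376027-60392634 (GRCm38), had the largest rise among called genes of at least 10 CPM whose libraries did not overlap: it lay between 10 and 37.5 CPM with ODN (median 20.8) and between 0.194 and 2.48 CPM without (median 1.36). Its log2 change was 3.92 (SE 0.35, adjusted p = 5.21e-07). Tgtp1, another member, lay between 29 and 65.8 CPM with ODN and between 9.18 and 14 CPM without, a log2 change of 2.0 (SE 0.17); its near-identical neighbour Tgtp2, with which it can share reads, rose by 1.87. Gbp2, a guanylate-binding protein, stood at 61.3, 44.9 and 54.2 CPM in ODN and 79.6, 66.4 and 71.2 CPM in ODN+IM156, against 27.1, 25.4 and 25.2 in control and 25.6, 21.5 and 24.1 in IM156. The 6 values with ODN all exceeded the 6 without, and its log2 change was 1.33 (SE 0.11).

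MHC class I presentation rose as well, in 15 of 23 tested genes (65.2%, against 7.3% of all genes), with none lower. H2-K1, a classical class I heavy chain, was at 3530, 3400 and 3540 CPM in ODN and 3780, 3570 and 3700 CPM in ODN+IM156, against 2410, 2240 and 2260 in control and 2130, 2120 and 2010 in IM156. No library with ODN reached down to those without, and the log2 change was 0.71 (SE 0.07, adjusted p = 1.32e-06). Psmb9, a subunit of the immunoproteasome that cuts peptides for class I, rose by 0.85 (SE 0.07), from a median of 166 CPM without ODN to 295 CPM with it; it overlaps Tap1 on the opposite strand. Tap1 (0.80), which carries those peptides into the endoplasmic reticulum, B2m (0.52), the class I light chain, and Nlrc5 (0.78), the transactivator of class I genes, also rose. Among standard proteasome subunits, by comparison, Psma4 and the assembly factor Pomp were the 2 of 35 called (5.71%, against 10.6% of all genes). Leaving out any of 10 libraries ended the call of Psma4 (adjusted p up to 0.122 over all settings). Leaving out any of 5, among them each control library, ended that of Pomp (up to 0.0729). H2-T22 rose by 1.02 (SE 0.08) and H2-Q4 by 1.42, both called whichever library was left out, whereas H2-Q7 (1.00) kept its call in 3 of those 12 cases; these non-classical class I genes are close copies, and reads may be split among them.

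Of 55 tested genes stimulated by type I interferon, 23 rose, with a median of 0.31, while 7.3% of all genes tested were called higher. The 1 called lower was Samd9l (-0.23). It was called in 4 of the 12 cases with a library left out and not with the replicate block or without the IM156 covariate. Ly6a, the surface antigen Sca-1, went from a median of 335 CPM without ODN (311 to 358) to 715 CPM with it (672 to 952), a log2 change of 1.16 (SE 0.08, adjusted p = 1.32e-08). Zbp1, a sensor of nucleic acids, rose by 1.03 (SE 0.11), and Isg15, the ubiquitin-like modifier, by 0.84 (SE 0.12), from 15.9 to 26.1 CPM without ODN to 29 to 40 CPM with it. Mx1 (0.10), Ifit1 (0.26), Rsad2 (0.09) and Usp18 (0.28), widely used interferon targets, were not called.

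Promoters were searched because these groups moved together. Promoter sequences of 300 bases, 250 before and 50 after each transcription start, come from RefSeq (GRCm38.p6), which held 11381 promoters of 8995 tested genes. The letters GAAA repeated after any 2 bases resemble the interferon-stimulated response element. They lay on either strand in 12 of 15 promoters of the interferon-gamma GTPases (80%), against 3.29% of all. Counts were 21 of 50 for type I interferon genes (42%) and 5 of 20 for class I genes (25%). They were 7 of 68 for ribosomal protein genes (10.3%), 4 of 59 for mitosis genes (6.78%) and 2 of 60 for DNA replication genes (3.33%). TTTGAA, the letters of the cell cycle homology region, lay in 45 of 59 promoters of mitosis genes (76.3%), against 12.2% of all. It lay in 9 of 60 of DNA replication genes (15%), 5 of 15 of interferon-gamma GTPases (33.3%) and 12 of 50 of type I interferon genes (24%). Class I genes had it in 1 of 20 (5%) and ribosomal protein genes in 4 of 68 (5.88%). CCAAT lay in 44 of 59 promoters of mitosis genes (74.6%), 14 of 20 of class I genes (70%) and 37 of 60 of DNA replication genes (61.7%), against 38.1% of all. Lower shares were found in type I interferon genes (18 of 50, 36%), ribosomal protein genes (21 of 68, 30.9%) and interferon-gamma GTPases (3 of 15, 20%). A match is a description of letters, not evidence of binding. The promoters of Gbp2 (chr3:142620413-142620712, plus strand) and Isg15 (chr4:156200769-156201068, minus strand) are shown for the interferon groups, and those of Cdk1 (chr10:69352863-69353162, minus strand) and Top2a (chr11:99024140-99024439, minus strand) for mitosis. They are written 5′ to 3′ on the gene's strand; capitals mark matches to any of the 3 motifs on either strand, and the 3 matches to the GAAA repeat in Isg15 overlap each other.
Gbp2: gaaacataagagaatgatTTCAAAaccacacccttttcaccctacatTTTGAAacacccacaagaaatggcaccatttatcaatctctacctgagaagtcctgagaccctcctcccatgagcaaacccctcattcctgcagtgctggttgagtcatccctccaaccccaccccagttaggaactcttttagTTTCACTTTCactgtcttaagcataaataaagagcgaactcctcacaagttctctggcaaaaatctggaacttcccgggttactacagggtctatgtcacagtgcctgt
Isg15: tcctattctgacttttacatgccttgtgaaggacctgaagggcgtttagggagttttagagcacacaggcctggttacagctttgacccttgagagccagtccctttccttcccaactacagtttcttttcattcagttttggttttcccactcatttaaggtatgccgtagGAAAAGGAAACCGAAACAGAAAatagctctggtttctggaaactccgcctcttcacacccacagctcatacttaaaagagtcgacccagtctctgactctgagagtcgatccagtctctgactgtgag
Cdk1: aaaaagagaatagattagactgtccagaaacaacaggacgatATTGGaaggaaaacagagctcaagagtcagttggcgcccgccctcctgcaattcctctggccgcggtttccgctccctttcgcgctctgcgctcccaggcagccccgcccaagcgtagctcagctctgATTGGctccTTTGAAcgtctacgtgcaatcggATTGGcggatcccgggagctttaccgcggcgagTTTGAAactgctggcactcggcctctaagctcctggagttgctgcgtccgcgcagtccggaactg
Top2a: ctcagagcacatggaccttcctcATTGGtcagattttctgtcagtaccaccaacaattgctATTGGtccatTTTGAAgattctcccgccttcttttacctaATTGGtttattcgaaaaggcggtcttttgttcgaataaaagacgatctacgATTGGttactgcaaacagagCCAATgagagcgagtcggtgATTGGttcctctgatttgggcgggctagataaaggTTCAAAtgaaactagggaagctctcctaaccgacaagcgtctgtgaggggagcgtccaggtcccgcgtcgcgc

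Genes of cell division rose together. Of 73 tested mitosis genes 70 rose (95.9%, against 7.3% of all genes) and none fell, with a median of 1.56. Top2a, the topoisomerase that untangles chromosomes, was at 859, 374 and 226 CPM in ODN, 159, 264 and 231 in ODN+IM156, 104, 70.4 and 124 in control and 88.2, 69.5 and 52.8 in IM156. The libraries with and without ODN did not overlap, although ODN replicate 1 lay far above the rest; the log2 change was 1.97 (SE 0.25, adjusted p = 3.74e-05). Cdk1, the kinase that drives entry into mitosis, rose by 1.87 (SE 0.25), from 10.8 to 20.3 CPM without ODN to 26.1 to 119 CPM with it. Pbk (2.28), Esco2 (2.25), Kif4 (2.04) and Mki67 (1.77), a mitotic kinase, a cohesin acetyltransferase, a chromokinesin and the proliferation marker Ki-67, followed. Pttg1 (-0.06), Smc4 (0.29) and Cit (1.37) were the 3 members not called.

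DNA replication genes rose in 45 of 63 (71.4%, against 7.3% of all genes), with none lower and a median of 0.68. Cdc6, which loads the replicative helicase, rose by 2.19 (SE 0.33), Rrm2, the ribonucleotide reductase subunit, by 1.97 (SE 0.28), Tcf19 by 2.03 (SE 0.27) and the polymerase Pole by 1.26 (SE 0.17). The 6 helicase subunits Mcm2 to Mcm7 rose by 0.48 to 0.79. ODN replicate 1 had the highest summed level of both groups, 7886 CPM for mitosis against 2304 to 3987 CPM in the other 5 libraries with ODN; without that library 1029 genes were called in all. Myc (0.01), the growth factor-induced transcription factor, was not called.

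Ribosomal protein genes rose by small amounts. Of 79, 57 were called higher (72.2%, against 7.3% of all genes) and none lower, with a median log2 change of 0.33. All 79 estimates were above 0. The count was 46 with library totals, 67 without a low-count filter and 69 as the mean of both 3 against 3 contrasts. Rps12 stood at 834, 827 and 686 CPM in ODN and 539, 600 and 576 in ODN+IM156, against 446, 472 and 423 in control and 481, 453 and 495 in IM156. Its 6 libraries with ODN exceeded the 6 without, and the pooled log2 change was 0.54 (SE 0.09); the change was 0.81 without IM156 and 0.26 with it, where it was not called (adjusted p = 0.153), and the interaction was not called either (adjusted p = 0.154). Of 76 subunits of the respiratory chain 4 were called (5.26%, against 10.6% of all genes), all higher: Atp5g2 (0.40), Cox4i1 (0.35), Cox5a (0.30) and Cox8a (0.23). The count was 3 with library totals, 9 by DESeq2, 15 without a low-count filter and 15 as the mean of both contrasts. In the additive model 66 of the 76 estimates were above 0. Cox8a kept its call in 3 of the 12 cases with a library left out, and Cox4i1 in 10. Some ribosomal protein genes have processed pseudogenes whose reads could be exchanged with theirs.

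**Figure D2:**
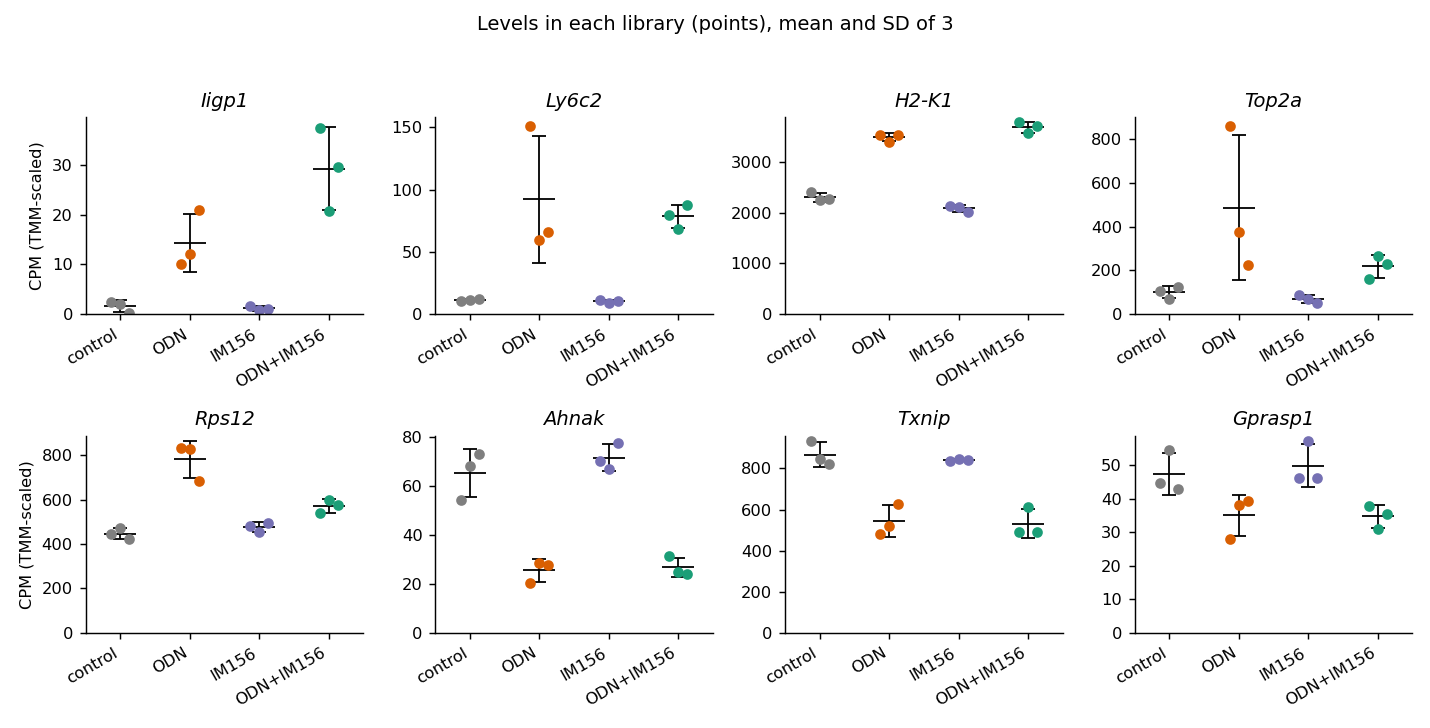
CPM of 8 genes (y axis, linear) in the 3 libraries of each group, with mean and SD. Iigp1, Ly6c2, H2-K1 and Top2a were higher and Ahnak and Txnip lower in all 6 libraries with ODN than in all 6 without; Rps12 changed by 0.81 on the log2 scale without IM156 and 0.26 with it, and Gprasp1 is a gene called only in the pooled test.

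Among genes that fell, Ahnak, which encodes a giant scaffold protein beneath the plasma membrane, was at 20.1, 28.6 and 27.7 CPM in ODN and 31.2, 24.7 and 23.9 in ODN+IM156, against 54.2, 68.2 and 72.9 in control and 70, 66.7 and 77.5 in IM156. The sides were far apart, with a log2 change of -1.39 (SE 0.10, adjusted p = 5.70e-08). Myadm, a membrane raft protein, fell by 0.92 (SE 0.08) with a range of 31.1 to 37.7 CPM with ODN and 57.8 to 72.4 CPM without. Apol7c and the pseudogene Gm8221, both on chromosome 15, fell by 1.69 and 1.96; the pair may share reads. Antxr2, an anthrax toxin receptor, Il6ra, a subunit of the interleukin-6 receptor, and Rhob, a small GTPase, fell by 1.16, 0.99 and 0.99.

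Immediate-early genes, switched on within minutes of stimulation, were lower on day 4. Of 28 tested, 13 fell and 1, Egr3 (0.40), rose, while 3.29% of all genes tested were called lower and 7.3% higher. Dusp1, a phosphatase of MAP kinases, lay between 35.6 and 64.3 CPM with ODN and between 77.7 and 119 CPM without, a log2 change of -0.85 (SE 0.10); it overlaps Ergic1 on the opposite strand. Cd69, an early activation antigen that also holds lymphocytes in tissue, fell by 0.70 (SE 0.08), and Klf6, a zinc finger factor, by 0.83 (SE 0.10). Fos (-0.55), Fosb (-0.59) and Junb (-0.52), components of the AP-1 factor, were also called lower, while Jun (-0.11) and Egr1 (0.07) were not called. Of 30 quiescence and FOXO-related genes 8 fell (26.7%, against 3.29% of all genes), but 4 without control replicate 2 and 5 with the replicate block. Tsc22d3, the glucocorticoid-induced leucine zipper, lay between 239 and 417 CPM with ODN and 453 and 882 CPM without (log2 change -0.90, SE 0.13). Txnip, an inhibitor of glucose uptake and of thioredoxin, went from a median of 843 CPM to 504 CPM (-0.67, SE 0.08); the antisense gene Gm15441 overlaps it. Klf2 (-0.35) and Klf4 (-0.63) were called lower, but Klf4 was not called without the IM156 covariate or with a robust spread (adjusted p 7.85e-14 to 0.0916 over all settings).

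B-cell state markers moved in part, and their counts are to be read against the 10.6% of all genes called. Called shares were 41.2% of follicular, 45.8% of age-associated, 25% of marginal zone, 15.8% of germinal centre and 20% of plasma cell and secretion genes. They were 23.3% of NF-kB and TLR targets, 12.9% of nucleolar and 14.8% of B-cell identity genes. The germinal centre, nucleolar and identity shares lay near that of all genes. Of 17 follicular markers 6 fell and 1 rose (Fcrl1), among them Fcer2a, the CD23 receptor, which fell by 0.40 (SE 0.09), and Cd55, a complement regulator, which fell by 0.56 (SE 0.07). Of 24 genes of age-associated (CD11c and T-bet positive) B cells 10 rose and 1, Ahnak, fell; Itgax, encoding CD11c, went from 3.81 to 6.4 CPM without ODN to 10 to 14.9 CPM with it (log2 change 1.18, SE 0.15), and Tbx21, encoding T-bet, rose by 1.40. Of 24 marginal zone genes 5 rose, Plac8 by 0.85 (SE 0.11) and Fcrl5 by 0.74 (SE 0.11), and 1 fell. The list median was -0.109, and 11 of the 24 estimates were above 0. Summed levels overlapped, at 5569 to 6597 CPM with ODN and 5789 to 6289 CPM without. Germinal centre genes had 3 of 19 lower. Of 30 genes of plasma cells and secretion 5 rose, Sec61g (0.42), Ssr4 (0.41), Sec61b (0.33), Ssr3 (0.31) and Manf (0.27), which serve protein entry into the endoplasmic reticulum and folding, and Irf4 fell (-0.27; adjusted p up to 0.0606 when single libraries were left out); Prdm1 (-0.17) and Xbp1 (-0.03), which specify and equip plasma cells, were not called. Of 43 NF-kB and TLR targets 9 rose and 1 fell. Traf1 rose by 0.72 (SE 0.11), Batf by 0.81 (SE 0.15) and the activation marker Cd83 by 0.40 (SE 0.10; adjusted p = 0.0511 without control replicate 2), while Cd86 (0.16), Nfkbia (-0.16) and Tnfaip3 (-0.10) were not called. Nucleolar genes had 2 higher and 2 lower of 31, and B-cell identity genes 2 higher and 2 lower of 27 (0 higher and 2 lower with library totals). Tlr7 was not called (0.10), and Tlr9 did not pass the filter, with 68 counts over the 12 libraries.

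Markers of other cells moved with ODN as well. Their counts are to be read against the 7.3% of all genes called higher and the 3.29% called lower. Platelet genes rose in 15 of 20, with a median of 1.30, and summed to 640.9 to 912.7 CPM with ODN against 532.1 to 608.5 CPM without; Pf4, platelet factor 4, went from 8.05 to 16.6 CPM to 27 to 55.9 CPM (log2 change 1.75, SE 0.18). Erythroid genes fell in 5 of 14, all of them globin rows that can share reads, and summed to 210.8 to 414.1 CPM with ODN against 265.7 to 1042 CPM without, where the lowest was IM156 replicate 3. NK cell genes rose in 6 of 9 tested of 18 listed (sum 86.14 to 123.5 against 59.8 to 75.1 CPM). Neutrophil genes rose in 3 of 5 tested of 22 listed (33.87 to 144.5 against 12.71 to 19.06 CPM, with Ctsg and Fcnb at 0 throughout). Monocyte and macrophage genes rose in 9 of 25 (1184 to 1416 against 925.6 to 1084 CPM). The filter works by treatment group, so a low marker can be tested only because its ODN libraries were high, which can raise these shares. Without a low-count filter 8 of 18 NK cell and 5 of 19 neutrophil genes rose. At a mean of 10 CPM these counts were 1 of 3 and 0 of 1. Ly6c2, a Ly6C antigen of monocytes that some lymphocytes also carry, was at 59.9 to 151 CPM with ODN and 9.26 to 12.1 CPM without (log2 change 2.96, SE 0.18, adjusted p = 7.62e-09); the paralog Ly6c1 may share its reads. Dendritic cell genes rose in 7 of 22, including Irf8, Itgax and Ffar2. B cells also express Irf8, and Itgax is counted above among the age-associated B-cell genes as well. T cell genes had 2 of 12 called (16.7%, against 10.6% of all genes), Cd8a and Thy1, the latter in 5 of 12 cases with a library left out, with a list median of 0.0025 and sums of 71.34 to 85.47 CPM with ODN and 59.52 to 73.65 CPM without. Dendritic cell genes summed to 4303 to 4729 CPM with ODN and 3691 to 3926 CPM without. Platelet, NK cell, neutrophil, monocyte and macrophage, and dendritic cell sums did not overlap between the sides, whereas erythroid and T cell sums did. Whether such cells had a part in the interferon, division and myeloid changes above was not tested.

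**Figure D3:**
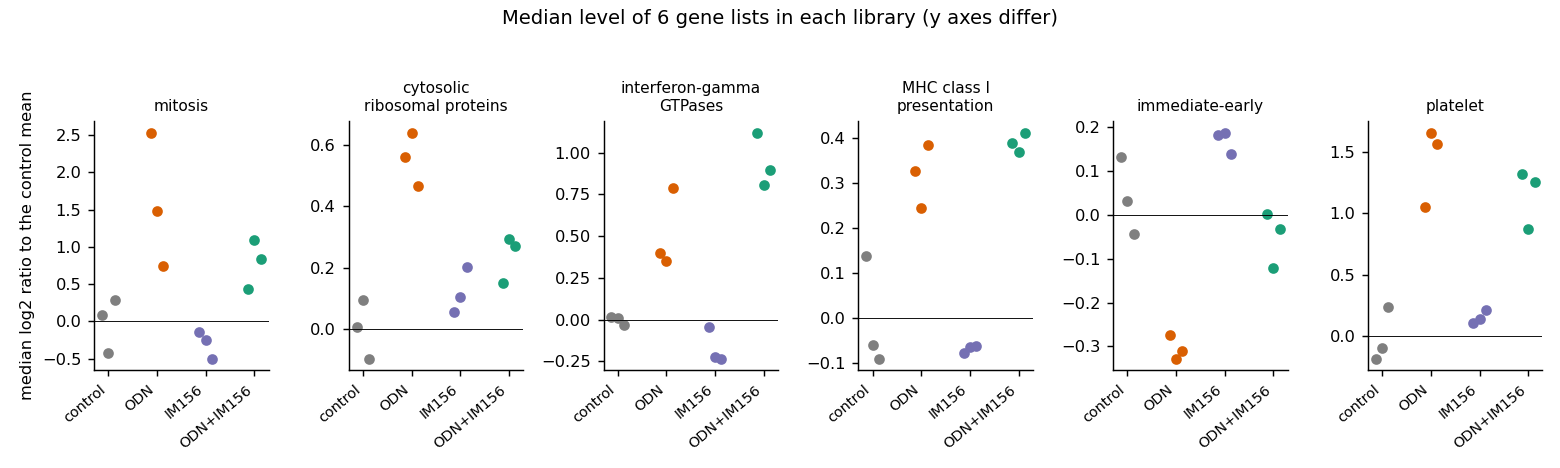
Median log2 ratio to the control mean over the genes of 6 lists (y axis, scales differ) in each library. Mitosis medians ran from 0.439 to 2.53 with ODN and from -0.499 to 0.293 without; ribosomal proteins were highest in the 3 ODN libraries, and interferon-gamma GTPases in the 3 ODN+IM156 libraries.

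The doubled replication lowered the back-calculated SE of the estimate for most genes. The median SE was 0.111 in the pooled test and 0.153 in either 3 against 3 comparison, taken as contrasts from a 12-library fit with 1 mean per group. It was larger pooled than in ODN against control for 27 genes and than in ODN+IM156 against IM156 for 33 genes, Armc9 among the former (0.18 against 0.15). The ratio of pooled SE to that of ODN against control was 0.711 under 10 CPM, 0.731 from 10 to 100 CPM and 0.764 over 100 CPM. The smaller error did not raise the total count of calls over that of ODN against control, which also called 1255 genes (10.6%; 870 or 7.34% higher, 385 or 3.25% lower). ODN+IM156 against IM156 called 293 (2.47%; 206 or 1.74% higher, 87 or 0.734% lower). These comparisons share libraries with the pooled test, so the overlap is a description: 806 genes were called both pooled and in ODN against control (64.2% of each list), and 269 both pooled and in ODN+IM156 against IM156 (91.8% of the latter, 21.4% of the pooled list). Pooling gained calls among low genes and lost them among abundant ones: under 10 CPM it called 310 genes against 229 in ODN against control, from 10 to 100 CPM 625 against 623, and over 100 CPM 320 against 403.

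The gain consists of 373 genes (3.15%) called pooled and in neither 3 against 3, 197 higher and 176 lower. Their median change was small, 0.416 on the log2 scale in absolute value, with 0.39 without IM156 and 0.435 with it. All 373 had the same sign in both, and none had an unadjusted interaction p under 0.05, which follows in part from how they were chosen. The gene of this kind with the smallest p was Gprasp1, a sorting protein of G protein-coupled receptors on chromosome X:135742733-135803474. It was at 27.9, 38 and 39.2 CPM in ODN and 37.8, 31 and 35.3 in ODN+IM156, against 44.6, 54.5 and 42.9 in control and 46.3, 57.3 and 46.1 in IM156. All libraries with ODN were below all without, by a pooled log2 change of -0.48 (SE 0.10, adjusted p = 0.00328), whereas the adjusted p was 0.056 without IM156 and 0.0547 with it. Atox1, a copper chaperone, was at 50.3 to 56.2 CPM with ODN and 40 to 47.2 CPM without, a rise of 0.33 (SE 0.07) that gave adjusted p-values of 0.0615 and 0.0557 in the separate comparisons. Got1, a cytosolic aspartate aminotransferase, rose by 0.33 (SE 0.07), and Egr3, an immediate-early factor, by 0.40 (SE 0.09), in both cases without overlap between the sides. Cd55b, Hepacam2, Sik1, Tk2, Sc5d and Kcnk5 fell by 0.31 to 0.66. In the gene lists the pooled-only calls were 5 of 28 immediate-early genes, 4 of 23 class I genes, 3 of 20 platelet genes, 5 of 63 DNA replication genes, 4 of 55 type I interferon genes, 3 of 43 NF-kB and TLR targets and 3 of 73 mitosis genes, and none of the 79 ribosomal protein or 76 respiratory chain genes.

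**Figure D4:**
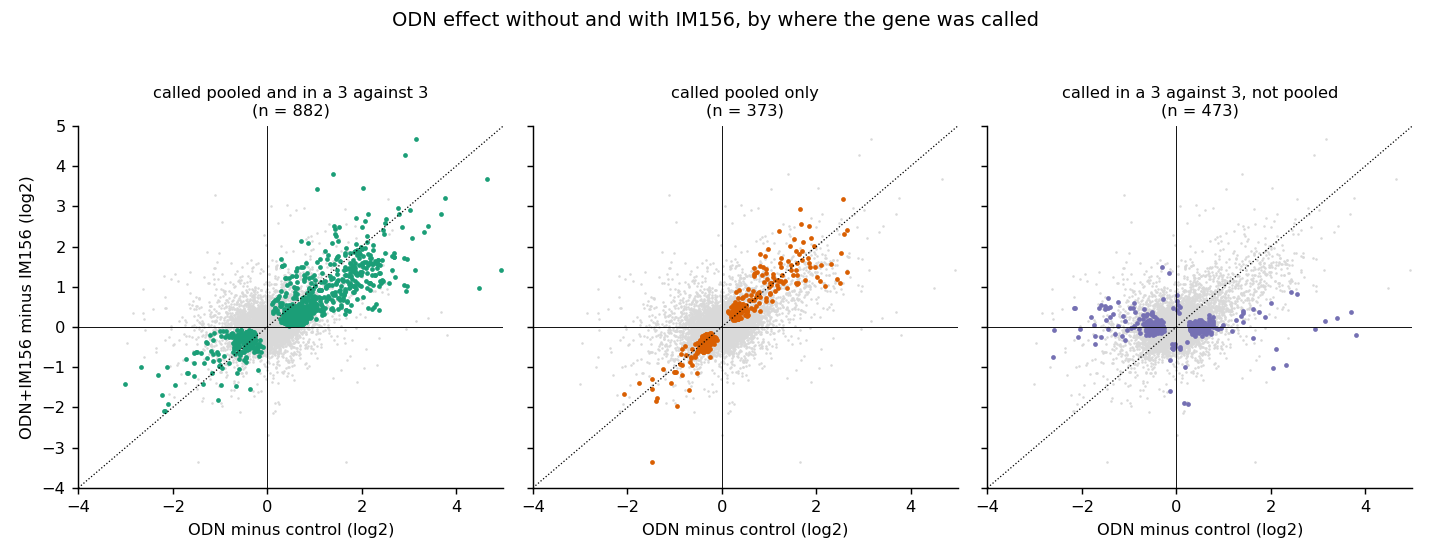
Log2 change for ODN minus control (x axis) against ODN+IM156 minus IM156 (y axis) for every tested gene (grey; 12 lie beyond the axes, 6 of them called in a test), with called genes coloured in each panel; the dotted line marks equal change. The 373 genes called only when pooled lie along that line, and the 449 and 24 called in one of the 3 against 3 but not pooled lie mostly near an axis.

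The loss consists of 449 genes called in ODN against control and not pooled, with 24 more from ODN+IM156 against IM156. With the mean of both contrasts as the pooled test, 327 genes called in ODN against control were lost. The 449 (3.79% of genes tested) had a median absolute log2 change of 0.456 without IM156 and 0.071 with it; they were picked for the former value. Armc9, a cilium protein, had the smallest p of these: it was at 12.1, 16.6 and 17.4 CPM in ODN against 37.9, 28.6 and 31.9 in control, but at 31.1, 26.1 and 26.3 CPM in ODN+IM156 against 25.9, 24.9 and 24.4 in IM156. Its log2 changes were -1.09 and 0.15, and -0.46 pooled (SE 0.18, adjusted p = 0.111). Rpl30, a ribosomal protein, changed by 0.58 without IM156 and -0.04 with it, and Uqcrh, a subunit of respiratory complex III, by 0.62 and -0.0025. In the lists, 21 of 79 ribosomal protein genes and 30 of 76 respiratory chain genes were among the 449: ODN against control called 78 of 79 and 34 of 76, and ODN+IM156 against IM156 called none of either. From the other side came Slc15a2, a peptide transporter, at 3.11, 0.951 and 4.52 CPM in ODN+IM156 against 7.78, 11.3 and 14 in IM156, with 30.8, 19.8 and 33 CPM in ODN and 16.7, 35 and 18.2 in control, and Cacna1e, a calcium channel, whose log2 changes were 0.80 with IM156 and 0.01 without it.

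The additive model takes the ODN effect as equal with and without IM156. The interaction, which tests that, called no gene (0%) by edgeR; 1453 genes (12.3%) had an unadjusted p under 0.05, and DESeq2 called 165, limma-voom 0. Without ODN replicate 3 edgeR called 260, and without a low-count filter 276. The smallest adjusted p of a named gene was 0.131, for Armc9. Among ribosomal protein genes 72 of 79 had an unadjusted interaction p under 0.05, and all 79 estimates were below 0, that is, the estimated change was smaller with IM156 (median -0.47). Mitosis genes had 5 of 73 at that level, a smaller share than among all genes, with 69 estimates below 0 (median -0.59). Their median log2 ratio to the control mean was 2.53 in ODN replicate 1, against 1.48 and 0.742 in ODN replicates 2 and 3. Interferon-gamma GTPases had 14 of 20, with no estimate below 0 (median 0.66), and type I interferon genes 18 of 55 (median 0.35). For the ribosomal protein and interferon groups the pooled value is an average of unequal estimates: Tgtp1 changed by 1.52 and 2.48, and Rps12 by 0.81 and 0.26. Medians of the interaction over all genes tested were -0.01.

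Fits that used only each comparison's own 6 libraries share no sample with each other. They called 598 of 11437 genes (5.23%) for ODN against control and 892 of 11492 (7.76%) for ODN+IM156 against IM156, so that the order of the call counts is turned compared with the 12-library fit, in which 1 spread per gene is shared. The median within-group SD of log2 levels was 0.138 for control libraries and 0.158 for ODN libraries but 0.105 and 0.107 for IM156 and ODN+IM156, and for mitosis genes it was 0.401, 0.912, 0.224 and 0.274 in that order. Of 11266 genes tested in both, 298 were called in both, which is 50.7% of the first list and 33.7% of the second; 297 of them changed the same way, and 297 were called pooled. Among genes called in ODN against control, 92.2% had the same sign in the other comparison, and in the reverse direction 88.7%, against 61.1% of all genes. Of the 1255 pooled calls, 868 were called in at least 1 of the own-library fits and 387 in neither.

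**Figure D5:**
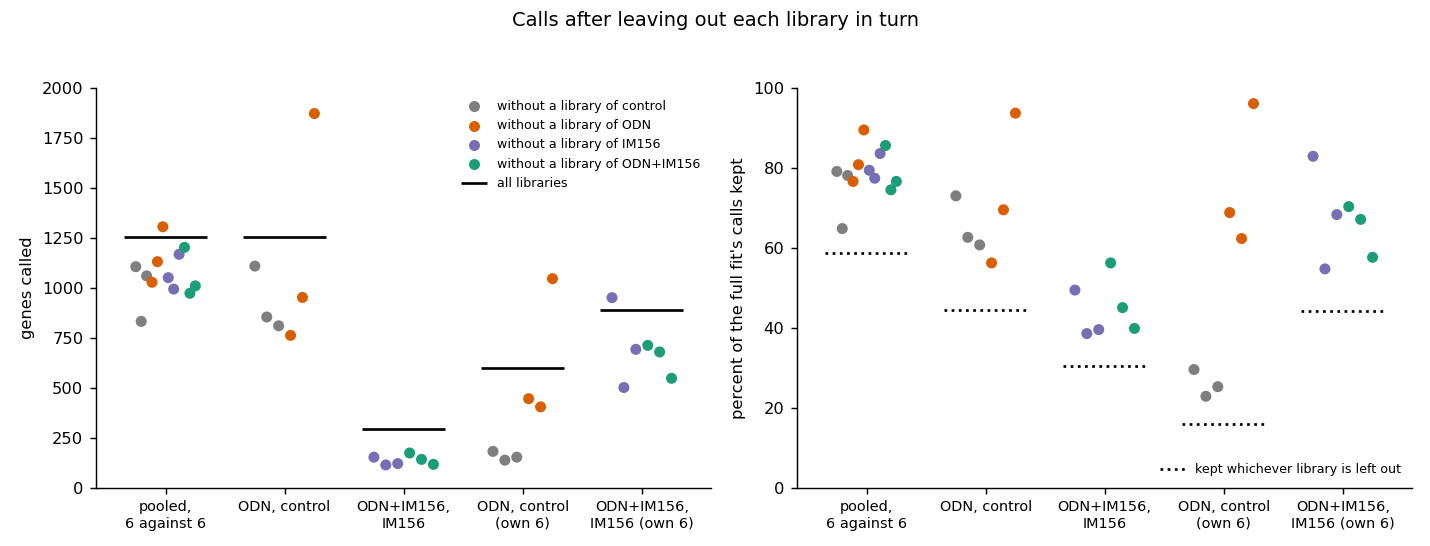
Genes called (left) and percent of the full fit's calls kept (right) when each library is left out, by comparison; lines mark the fit with all libraries (left) and the share kept whichever library was left out (right). The pooled counts ran from 833 to 1307, and those of ODN against control from its own libraries from 138 to 1047.

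Pooling also changed how far single libraries set the result. Leaving out each of the 12 libraries in turn gave 833 to 1307 pooled calls, a ratio of 1.57, and kept 64.9 to 89.6% of the 1255; 737 (58.7%) were kept in every case. The lowest count, 833, came without control replicate 2 (620 higher, 213 lower). For ODN against control, leaving out each of its 6 libraries gave 763 to 1874 calls, the latter without ODN replicate 3, the library without Xist, and 560 (44.6%) were kept in every case. For ODN+IM156 against IM156 the range was 114 to 174 calls, below the 293 of the full fit, and 89 (30.4%) were kept. Control and ODN libraries are in the shared spread but not in that contrast. Leaving out ODN replicate 1 gave 543 calls there, ODN replicate 3 445, ODN replicate 2 310 and single control libraries 273 to 280. In the own-library fits 95 of 598 (15.9%) and 394 of 892 (44.2%) were kept. A left-out library is a smaller part of 12 than of 6, so these ranges are not of equal reach. Of the pooled-only genes 88 of 373 (23.6%) were kept in all 12 cases, against 649 of 882 (73.6%) called also in a 3 against 3, and the 10 named above were all kept. Without ODN replicates 2 and 3 together 1305 genes were called. Over the 12 cases mitosis genes had 66 to 70 higher, interferon-gamma GTPases 16, class I genes 12 to 15, ribosomal protein genes 43 to 64 and immediate-early genes 11 to 14 lower. Other lists moved by more than 1.5 times: the count of lower quiescence genes fell from 8 to 4, of higher plasma cell and secretion genes from 5 to 2, of higher marginal zone genes from 5 to 3 and of higher B-cell identity genes from 2 to 0, all without control replicate 2. Respiratory chain genes ranged from 2 higher without control replicate 2 to 9 without IM156 replicate 3, neutrophil genes from 2 without ODN replicate 1 to 5 without IM156 replicate 1, and proteasome genes had 0 without control replicate 3.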

How the data were processed

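Counts are those the authors deposited: raw read counts per gene symbol, made from QuantSeq 3′ libraries; per the submitters' processing notes the tools were Bowtie2, bedtools and edgeR and the genome GRCm38 (mm10). Versions, gene annotation and the strand rule of counting are not given in the sources used here, so reads of genes that overlap on opposite strands cannot be told apart. The 12 normalized columns and 4 group averages of the table were not used. Of 23282 rows, 5883 had no count, and the tested genes held 99.92 to 99.94% of counts; a tested gene had a median of 258 counts. Replicates differed beyond counting error (chi-square per degree of freedom 5.35 to 72.6), so the spread between libraries sets the precision. Reads carry no molecular identifiers.

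Genes were kept by filterByExpr over the 4 groups, scaled with TMM and fitted with edgeR 4.0.16 (R 4.3.3) by quasi-likelihood. The pooled test used ODN plus IM156 as additive terms (9 residual degrees of freedom); both 3 against 3 contrasts and the interaction came from a fit with 1 mean per group (8), and own-library fits had 4. Tests were two-sided. Alternatives covered scaling, filter, DESeq2 1.42.0, limma-voom (limma 3.58.1), robust spread, covariate, replicate block and left-out libraries; the code was tested on simulated data. Named genes are, up to 12 rises and 12 falls of largest change, from calls whose higher side averaged 10 CPM or more and whose libraries did not overlap in both 3 against 3; the 10 smallest p-values of pooled-only calls of at least 10 CPM; up to 5 lost from each 3 against 3; the 5 smallest interaction p-values; up to 3 per gene list; and a fixed panel. Others were named from the lists as examples after their values were seen. The members and the 25 lists were chosen with earlier results of these data known. Positions are from GENCODE vM21. A result on a withheld item is not reported here.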

Additional observations from a re-analysis of the deposited data

Results flagged for a closer look

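Each side of 6 libraries was searched for a highest or lowest library whose distance to its nearest neighbour is more of the side's range than Dixon's critical value allows for 6. Over 56 such searches (25 list sums, Xist, Rn45s and total counts on each side) 6 values stood out, where chance alone marks about 1 in 20. ODN replicate 1 was the outlying library in 5 of them. Its summed mitosis level was 7886 CPM, against 2304 to 3987 in the other 5 libraries with ODN, and its summed DNA replication level 5114 CPM, against 2339 to 3023. Its age-associated B-cell genes summed to 1807 CPM (others 1560 to 1631), its follicular genes to 7264 CPM (others 8493 to 8973) and its neutrophil genes to 144.5 CPM (others 33.87 to 46.11). ODN replicate 3 was outlying in Xist, at 0.0957 CPM against 923.9 to 1320. The sides mix libraries with and without IM156, and groups of 3 were not searched. No gene had an interaction past the threshold by edgeR, so no named gene is listed here for a difference between ODN with and without IM156.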

How the results depend on the processing

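Pooled calls numbered 944 (filter at 10 CPM) to 1611 (no filter) over the planned settings that keep the threshold, with 1586 by DESeq2, 1189 by limma-voom, 1452 with library totals and 1444 as the mean of both contrasts. An adjusted p under 0.01 left 603 and a 2-fold minimum 369. The replicate block gave 1128. No clear pairing by replicate number was seen (correlations of same-numbered deviations -0.165 to 0.114, and not every library correlated best with its own number). With 3 libraries per group these correlations cannot exclude pairing. Without a filter, ODN+IM156 against IM156 gave 652, the interaction 276, ODN against control from its own libraries 1148 and the calls shared by both own-library fits 486; DESeq2 gave 165 for the interaction and limma-voom 199 shared calls, a robust spread 204. Genes called pooled and in neither 3 against 3 numbered 236 at 10 CPM, 36 at 0.01 and 91 at 2-fold; those called in ODN against control and not pooled numbered 732 at 0.01 and 991 at 2-fold, since only the pooled call was made stricter. The cause of the other shifts was not tested. Leaving out each library of the fit gave 833 to 1307 pooled calls, 763 to 1874 for ODN against control, 114 to 543 for ODN+IM156 against IM156, 0 to 260 for the interaction, 138 to 1047 and 502 to 952 for the own-library fits, 248 to 404 pooled-only, 235 to 919 lost and 76 to 359 shared. No named gene that was called turned direction under any setting run. Depth limits genes under 10 CPM, whose median SE was 0.283.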
